A study of Daphnia magna with 144 samples.

Results

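The subject is a set of 150 array probes of the freshwater crustacean *Daphnia magna* that were among the brightest on the array and whose level moved only to a limited degree between chemicals. They were chosen on scanner values, as background-subtracted Cy3 intensity plus 50 on the log2 scale, averaged over the spots of a probe and quantile normalised over all arrays of the 36 chemicals. A probe was taken when the mean of its 36 chemical means was at least 11 and its span, the highest minus the lowest chemical mean, lay from 1 to 2. The 150 of highest mean level were kept. Of 14338 probes on the array, 1380 had a mean of at least 11 and 664 of these had a span from 1 to 2. The level, the span and every difference between chemicals in the scanner values were therefore used for the choice and are given below as descriptions, without a test.

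The arrays hold RNA of whole animals aged 14 days, 20 in 1 L of medium, after 24 h with a chemical. The labels set the concentration at 1/10 of the LC50, which is the concentration that kills the median animal. Each of the 36 chemicals has 4 arrays, and each is assigned by its label to the control of its vehicle. All exposed animals came from 1 supplier and were fed algae and a mixed feed. In plain medium 13 chemicals were given. They were 20 hydroxyecdysone at 1.37 mg/L, Acrylonitrile at 1.27, Arsenic at 0.54, Cadmium at 0.018, Chromium at 0.054, Copper at 0.00615, Manganese at 2.8, MTBE at 145, Nickel at 0.69, Phenol at 0.79, Selenium at 1.33, Silver at 0.000043 and Zinc at 1.77 mg/L. The 15 chemicals in ethanol were 2-chloro vinyl ether at 17.3 mg/L, Beta-benzene hexachloride at 146, Beta-estradiol at 1, Bifenthrin at 0.0001, Bis2-ethylhexyl phthalate at 0.039, Chloroform at 7.47, Dichlorobenzene at 1.51, Lamda Cyhalothrin at 0.0006, Methoxychlor at 0.0944, Nonylphenol at 0.0071, Toluene at 3.58, Toxaphene at 0.172 and Trichloroethylene at 2.49 mg/L, PonasteroneA at 0.813 µM and Pyripoxyfen at 0.3 nM. Methanol carried Aroclor at 0.166 mg/L, Chlorpyrifos at 0.00129 mg/L and Methylfarnesoate, whose label gives 20 with units that contradict each other. Acetone carried Atrazine at 2.07, Diazinon at 0.0003 and Parathion at 0.00226 mg/L. DMSO carried Permethrin at 0.00041 and Phenanthrene at 0.366 mg/L.

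*Daphnia magna* is a small planktonic grazer that reproduces without mating under good conditions and is a standard test animal for toxicity in fresh water. Adult females carry their embryos in a brood pouch under the carapace and moult with each brood, so RNA of whole adults can include gut, muscle, epidermis, ovary and embryos. In such bulk RNA, fewer cells of a type and less RNA per cell cannot be told apart. A bright spot on a 1-colour array comes from a transcript that is abundant, from a probe that binds it well, or from both, so levels of different probes are not ranked here as amounts of RNA. The probes carry the array's own IDs, and none of the 150 could be tied to a gene through the files or the RefSeq gene table, so they are named by ID and no function is given.

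All 150 probes gave a signal well above background on every array. They occupied 168 spots, 1.10% of the probe spots, and held a median of 18.8% of the net signal of an array (range 15.4% to 20.3%). All 24192 spot values exceeded the mean plus 3 SD of the negative control spots. The lowest net intensity of a member spot on any array was 2465, beside a median background of 35 to 41 over the arrays and a median foreground of 67 to 125. The upper end of the scanner's range was reached by 7 probes in 81 spot values, at an intensity of 65535. DM11755, the brightest, reached it on 37 arrays, DM01586 on 20 and DM02662 on 12. On those arrays the true level is bounded only from below and such values have no order among them. DM11755 was at the limit on all 4 arrays of 20 hydroxyecdysone, as was DM02662 in MTBE and in Silver. The 81 values at the limit are also the only ones of these probes that carry a bad-spot flag.

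Mean levels ran from 13.09 to 15.76 with a median of 13.87. The set holds 15 probes with a mean of at least 15, 54 from 14 to 15 and 81 under 14. The spans ran from 1.00 to 1.99 with a median of 1.39, a 2.61-fold range over the chemicals. When the highest and the lowest chemical of each probe were set aside, the median span was 1.11, and 47 probes then spanned less than 1. For these 47, the highest and the lowest chemical carried the span over the lower bound. At the edge of the mean, DM08492 and DM12850 were the last probes taken, both at 13.09, and DM10746 and DM02499 the first left out, also at 13.09 after rounding. At a span of 1, DM11862 at 1.00 and DM10470 at 1.01 were in, while DM00181 at 0.991 and DM05374 at 0.981 were out. At a span of 2, DM01598 and DM07128 were in at 1.99, while DM04031 and DM06117 were out at 2.01. The bounds thus cut through probes with nearly the same values.

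The 5 brightest probes were lowest in different chemicals, while their upper ends lay near the scanner limit and are not ranked. DM11755 had a mean of 15.76 and was lowest in Arsenic (15.67, 13.69, 13.88 and 15.26 on the 4 arrays). Because DM11755 reached the limit on 37 arrays, its span of 1.35 rests on values at the limit, and the chemical in which it was highest could not be told. The 4 Arsenic arrays lay further apart than that span. DM02662 was lowest in Permethrin, at 14.51, 14.72, 14.67 and 14.53, and its arrays in Methoxychlor, an organochlorine insecticide, read 15.97, 15.97, 15.98 and 15.999. DM01586 was lowest in Methoxychlor (mean 14.64). DM02718 read 15.89, 15.92, 15.89 and 15.92 in Methoxychlor and was lowest in Chloroform, at 14.47, 14.47, 14.36 and 14.34. DM02662 and DM02718 were thus near the limit in the chemical in which DM01586 was lowest. DM01619 read 15.9995, 15.97, 15.67 and 15.68 in Nickel and was lowest in Silver, at 15.57, 15.16, 12.75 and 13.06. Its Silver arrays fall into an upper and a lower pair that differ by more than 2 log2 units.

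The largest spans belonged to DM01598 and DM07128. DM01598 was highest in Diazinon, an organophosphate insecticide, at 13.99, 13.78, 14.15 and 14.05, and lowest in Permethrin, a pyrethroid insecticide, at 12.01, 11.995, 11.94 and 12.07. DM07128 was highest in Pyripoxyfen, at 14.41, 14.45, 14.45 and 14.40, and lowest in Toxaphene, at 12.51, 12.38, 12.44 and 12.42. For DM07128 the SD over the 4 arrays was 0.0249 in Pyripoxyfen and 0.0529 in Toxaphene, beside a median of 0.0805 over the chemicals. For DM01598 it was 0.0517 in Permethrin but 0.156 in Diazinon, beside a median of 0.119. The Diazinon arrays of DM01598 thus lay further apart than its arrays of a typical chemical.

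The spread between the 4 arrays of a chemical was not itself a criterion of the choice. It still enters the span, which is taken between means of 4 arrays. An order of sets by replicate SD is therefore partly fixed where the sets differ in span. The pooled replicate SD of the 150 probes had a median of 0.139, beside 0.263 for 151 probes with a span over 2 and a mean of at least that of the dimmest of the 150, and 0.108 for all probes on the array. The median level of the 151 was 13.82. For the 52 probes above the same mean with a span under 1 the median replicate SD was 0.111. These were brighter, however, with a median level of 15.20, and nearer the scanner limit. Most probes on the array were far dimmer than the 150. The median foreground of an array was 67 to 125, while the lowest net intensity of a member spot was 2465. The constant added before the log step narrows the spread of dim probes more than that of bright ones. The 0.108 of all probes is therefore not comparable with the 0.139 of the 150. The SD of the 36 chemical means was a median of 2.23 times the replicate SD (range 0.844 to 4.17). The smallest replicate SD was that of DM12850, at 0.0813, whose arrays lay at 13.96, 13.94, 13.73 and 13.92 in Nickel, its highest chemical, and at 12.24, 12.23, 12.33 and 12.31 in Diazinon, its lowest. DM01982 came next at 0.0838, with its highest mean in Silver (14.22, 14.28, 14.29 and 14.36) and its lowest in Toxaphene (13.01, 13.00, 12.94 and 12.96). In both, the extreme chemicals did not overlap, which a span of at least 1 and so small a replicate SD largely fix in advance. Only 17 probes had a replicate SD above 0.2 and 3 above 0.3. The 3 were DM01619 at 0.501, DM01861 at 0.367 and DM03281 at 0.358, and DM03281 is named here after its value was seen. Of the 150 probes, 18 were spotted 2 times. A spot SD was taken from how the difference between the duplicate spots varied over the arrays. It had a median of 0.102 (range 0.0495 to 0.233) and leaves out any constant offset between the spots. The median absolute difference between duplicates, which includes such an offset, had a median of 0.157 over these probes and was 0.42 at the largest.

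The large spread of DM01619 and DM01861 came from the same 8 arrays. The 8 lowest arrays of DM01619 lay at 12.68 to 13.43, while the other 136 arrays lay at 14.46 or above with a median of 15.49. All 8 arrays were of chemicals given in medium, namely Arsenic, MTBE, Silver and Acrylonitrile, with 2 arrays each. In Arsenic the 4 arrays of DM01619 read 15.55, 12.68, 12.94 and 15.74. In MTBE they read 15.31, 15.49, 12.81 and 13.37. In Acrylonitrile they read 15.34, 15.68, 13.24 and 13.43. The 8 lowest arrays of DM01861 fell in the same 4 chemicals, 2 in each, at 12.75 to 13.27, and its other arrays lay at 13.88 or above. In Arsenic its arrays read 14.88, 13.02, 12.75 and 14.80, so the split fell on the same arrays as for DM01619. Over the residuals of all arrays from the chemical means, the 2 probes had a correlation of 0.94, and 6 of the 149 other probes exceeded 0.8 with DM01619. The lowest chemical means of these probes therefore average an upper and a lower pair of arrays. No label tells the upper arrays from the lower ones, and the cause was not tested.

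Such pairs of arrays were common over the whole set. For each chemical, the squared deviation of the 150 probes from the chemical mean was divided among the 3 ways of setting 2 arrays against the other 2, each of which would take 33.3% if the spread were even. The largest of the 3 took a median of 77.0% (range 36.6% in Zinc to 95.5% in Arsenic), and more than 60% in 30 of the 36 chemicals. As the largest share, it cannot lie below 33.3%, so only its size is described. It set replicates 1 and 2 against 3 and 4 in 18 chemicals, 1 and 4 against 2 and 3 in 17, and 1 and 3 against 2 and 4 in Chromium. It was the same split over all probes of the array in 35 chemicals, so the pairing is not particular to the 150. Taken over the probes and the pairs of the largest split, arrays of a pair had a median root mean square SD of 0.0582. It was 0.121 for the 4 arrays of a chemical. The pairs were picked by the largest split, so the direction of this difference is fixed by that choice. The labels call all 4 arrays replicates and name no slide, scan or extraction. Whether arrays of a pair share a source was not tested, and p-values that count arrays take all 4 as independent. Results that average several chemicals are for this reason also given with 1 value per chemical, an analysis added after the pairs were seen.

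The second question is how the 150 probes stood relative to the vehicle controls. The choice did not use the controls, but it bounded the exposed level that enters each ratio. The deposited value table gives a log2 ratio of each array to the reference of its vehicle, and all 150 probes are among its 13481. Its direction and scale are not stated with the values. Among the arrays of its chemical, the scanner array with the same number gave the highest correlation for every value column (0.596 at the lowest, after centring on the chemical), and differences between chemicals of a vehicle had a median slope of 0.962 on scanner differences over the 150 probes (range 0.641 to 1.19). A positive ratio is on this basis read as higher in the exposed animals. The 20 control arrays were not used here because no sample label belongs to them, so their spread is missing from the tests and all p-values are too small. A limma fit of 36 chemical means over all arrays gave the tests, with Benjamini-Hochberg adjustment over all probes and a call at an adjusted p under 0.05. The p-values measure the spread between these arrays only.

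Averaged over the 13 chemicals in medium, 84 of the 150 probes rose and 58 fell relative to the medium reference, 142 calls in all (94.7%), where 91.2% of all probes were called (44.5% higher and 46.7% lower). With 1 value per chemical limma called 103, where 73.3% of all probes were called. A mean ratio of at least 1, a doubling, was reached by 8 probes upward and 1 downward, or 6% of the set, beside 12.5% of all probes upward and 8.66% downward. The median absolute ratio was 0.32 for the 150 and 0.50 for all probes. Of the 151 bright probes with a span over 2, 42.4% reached a mean ratio of 1 in either direction. The bound on the span limits how far the exposed level, the upper part of each ratio, can move between chemicals, so smaller ratios than over all probes are partly fixed by the choice. The large ratios depended on the scaling: with quantile normalised ratios 0 of the 150 reached 1 in medium (7.86% of all probes upward and 5.73% downward), while limma still called 136 (88.5% of all probes).

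DM12234 had the highest mean ratio in medium. It was above 0 on 52 of 52 arrays, with a lowest value of 0.25, a median of 1.29 and a highest value of 1.85. Its mean was 1.23 ± 0.03 (SE; limma adjusted p = 3.3e-75, or 5.1e-12 with 1 value per chemical). DM11755 was next with a mean of 1.22 ± 0.03 (SE; limma adjusted p = 2e-61), a range of -0.21 to 2.16 and 50 of 52 arrays above 0. Its lowest chemical mean, 0.45, was that of Arsenic. DM01837 fell furthest, with a mean of -1.05 ± 0.02 (SE; limma adjusted p = 5.2e-74), a range of -2.43 to -0.39 and no array above 0. DM08067 followed at -0.94 ± 0.02 (SE; limma adjusted p = 3.2e-66), also with no array above 0. With quantile normalised ratios the 4 means were 0.93, 0.90, -0.86 and -0.78.

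In the other vehicles the mean ratios were smaller, apart from 2 probes in acetone. For the 15 chemicals in ethanol, 47 probes rose and 74 fell, 121 in all, where 84.2% of all probes were called (40.7% higher and 43.4% lower). Limma with 1 value per chemical called 50, and 47.9% of all probes. None of the 150 had a mean of at least 1 in either direction, beside 2.01% of all probes upward and 3.62% downward. DM02402 was highest at 0.52 ± 0.02 and DM08093 next at 0.42 ± 0.02, while DM01897 was lowest at -0.56 ± 0.03 and DM10935 next at -0.52 ± 0.02 (SE, 60 arrays). DM01897 lay between -1.97 and 0.27 over the arrays, and its lowest chemical mean, -1.92, was that of Chloroform.

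For the 3 chemicals in methanol, 15 probes rose and 71 fell, 86 in all, with 53.8% of all probes called (24.5% higher and 29.3% lower). Limma with 1 value per chemical called 0 of the 150 and 1.62% of all probes. In that fit 3 of the 150 had an unadjusted p under 0.05, beside 1687 of all 13481 probes. No probe of the set reached a mean of 1, beside 4.01% of all probes upward and 1.85% downward. The methanol calls thus rest on counting arrays. DM01598 was highest at 0.46 ± 0.06 and DM02510 lowest at -0.49 ± 0.04 (SE, 12 arrays), and their adjusted p with 1 value per chemical in limma was 0.41 and 0.099. DM05058 at 0.23 and DM03930 at -0.41 were next and were not called with 1 value per chemical either.

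For the 3 chemicals in acetone, 45 probes rose and 74 fell, 119 in all, with 73.2% of all probes called (35.3% higher and 37.9% lower). Limma with 1 value per chemical called 36, and 23.0% of all probes. A mean of at least 1 was reached by 1 probe upward and 1 downward, beside 8.54% and 4.51% of all probes. DM07128 was highest. Its 12 arrays lay between 0.84 and 1.51, with a mean of 1.09 ± 0.04 (SE; limma adjusted p = 6.8e-51, or 0.0073 with 1 value per chemical). DM01510 was lowest, between -1.62 and -1.06 on all 12 arrays, with a mean of -1.37 ± 0.05 (SE; limma adjusted p = 2.2e-48, or 4.7e-07 with 1 value per chemical). Its chemical means ran only from -1.48 in Diazinon to -1.32 in Atrazine. DM03930 at 0.92 and DM01788 at -0.92 were next, and both kept their call with 1 value per chemical.

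For the 2 chemicals in DMSO, 38 probes rose and 65 fell, 103 in all, with 67.3% of all probes called (32.3% higher and 35.0% lower). Limma with 1 value per chemical called 2, and 6.31% of all probes. None of the set reached a mean of 1, beside 6.97% of all probes upward and 5.86% downward. DM02055 was highest at 0.61 ± 0.04 (SE, 8 arrays), and its chemical means were 0.59 in Permethrin and 0.63 in Phenanthrene. DM01598 had a mean of -0.60 that joined -1.33 in Permethrin with 0.13 in Phenanthrene, and DM01897 a mean of -0.61 that joined -1.15 with -0.08. DM02471 joined 1.14 in Permethrin with 0.07 in Phenanthrene at a mean of 0.61. Those 3 were not called with 1 value per chemical (limma adjusted p = 0.17, 0.22 and 0.073).

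The mean ratio of the chemicals in medium differed from that of the chemicals in ethanol for 141 of the 150 probes, 85 higher and 56 lower in medium, where 90.1% of all probes were called (47.4% higher and 42.7% lower). Limma with 1 value per chemical called 99, and 69.5% of all probes. A difference of at least 1 was reached by 8 probes upward and 2 downward, beside 16.6% and 12.5% of all probes. DM01598 differed by 1.53 ± 0.04 and DM12234 by 1.51 ± 0.03 upward, and DM08093 by -1.15 ± 0.03 and DM01837 by -1.03 ± 0.03 downward (SE). The chemicals and the references both enter this difference.

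Subtracting a ratio from the scanner level gives the level of the reference that the ratio implies. For DM12234 the chemicals averaged 13.25 in medium, 13.79 in ethanol, 13.77 in methanol, 13.44 in acetone and 13.84 in DMSO. The implied references stood at 12.01 in medium, 14.06 in ethanol, 13.98 in methanol, 13.30 in acetone and 13.39 in DMSO. The vehicle means of the chemicals thus spanned 0.59 and the references 2.05, with the medium reference more than 1 below the next. DM01837 showed the opposite direction, with a chemical mean of 13.52 in medium beside an implied medium reference of 14.56, while its other references lay between 12.73 and 13.35. DM11755 had a chemical mean of 15.49 in medium beside an implied reference of 14.26, and its other references, at 15.69 to 15.92, were close to the scanner limit. DM01510 differed in that its vehicle means of the chemicals spanned 1.25 and its references 0.74. Its chemicals averaged 13.76 in acetone, against 14.83 to 15.01 in the other vehicles. Its acetone reference, at 15.13, was its highest, beside 15.08 in ethanol, 14.81 in methanol, 14.79 in DMSO and 14.385 in medium.

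Over the 150 probes the 5 implied references spanned a median of 0.66 (range 0.15 to 2.05), beside 0.51 for the 5 vehicle means of the chemicals, which the choice had bounded. The span of the references was the larger for 98 probes. Each probe has a lowest and a highest reference. Medium held either of these for 107 probes, the lowest for 61 and the highest for 46. Acetone held either for 75 probes, ethanol for 48, DMSO for 37 and methanol for 33. Without medium the references spanned a median of 0.36. For 112 probes, and for all 9 with a mean ratio of at least 1, the medium reference lay further from the mean of the other 4 references than the chemicals in medium lay from the chemicals of the other vehicles. The same count was 97 in ethanol, 96 in methanol, 63 in acetone and 71 in DMSO, and it held for 1 of the 2 probes with a mean ratio of at least 1 in acetone. An implied reference is the chemical level minus the ratio, and the choice bounded the chemical level. For probes picked by a large ratio, this order is therefore largely fixed in advance. Shares over all probes are not given for these counts, so they are descriptions of the set only. Within a vehicle, the implied reference had a median SD over chemicals of 0.0681. Each vehicle had 1 control set, so a difference between references and a difference between the handling of control sets cannot be told apart.

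For single chemicals, the number of the 150 probes called against the vehicle reference ran from 55 in Aroclor (where 42.2% of all probes were called) to 129 in Silver (72.6%). The low end depended on the scaling, since quantile normalised ratios gave 91 calls in Aroclor (60.7% of all probes). They gave 114 in 2-chloro vinyl ether (58.0%), against 60 as deposited (22.3%), and 111 in Toluene (58.0%), against 60 as deposited (27.0%). Summed over the 36 chemicals, 3641 of 5400 tests were called (67.4%), beside 60.4% over all probes. Calls of at least 1 numbered 137 upward and 69 downward, 2.54% and 1.28% of the tests, beside 9.18% and 8.44% over all probes. Probes of large span were left out by the choice, so this difference is a description. Of the 206 large calls, 153 were in medium, 7.85% of the tests there, beside 25.8% over all probes. Ethanol had 31 (1.38%, beside 12.4%), acetone 13 (2.89%, beside 16.7%), DMSO 9 (3%, beside 17.0%) and methanol 0 (beside 9.39%). They fell on 65 probes, 43.3% of the set, where 80.6% of all probes had at least 1. DM01598 had large ratios in 13 chemicals and DM12234 in 12. Copper had 22 large calls upward and 2 downward, where 15.7% and 11.9% of all probes were called so. Phenol had 20 and 10 (20.0% and 17.1% of all probes), and 20 hydroxyecdysone, the moulting hormone, had 18 and 8 (20.7% and 20.6%). Chloroform had 1 upward and 13 downward (8.06% and 12.7%). With quantile normalised ratios the large upward calls over all chemicals numbered 59, where 9.08% of the tests of all probes were called so. There were 6 in Copper, 0 in Phenol, 1 in 20 hydroxyecdysone and 2 in Chloroform, and Chloroform had 4 downward. Shares of all probes for these single chemicals are not given with this scaling, so these counts are not set against the whole array. In 9 chemicals no probe of the set had a large call in either direction. Of all probes, 2.34% (2-chloro vinyl ether) to 13.7% (Methylfarnesoate) had one in these chemicals. These chemicals share their controls within a vehicle, and they are named after their counts were seen.

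In the scanner values the extremes were spread over many chemicals. The highest mean of at least 1 probe was held by 27 chemicals and the lowest by 25, where an equal share would be 4.17 probes each. The counts of highest means include the 7 probes that reached the scanner limit, whose upper order is not known. Diazinon held the lowest mean of 35 probes and Methoxychlor of 18, and Methoxychlor also held the highest mean of 16. Arsenic held the lowest of 16, Permethrin of 15 and Phenol of 11. Nickel held the highest mean of 19 probes, Copper of 14 and 20 hydroxyecdysone of 11. Replicate 3 of Nickel stood apart from its other arrays. On it the 150 probes held 18.7% of the net signal, beside 17.0% to 17.1% on the others. DM08067, highest in Nickel, read 14.68, 14.86, 13.42 and 14.59 there. The array medians of the deviation in Nickel were 0.169, 0.163, 0.147 and 0.139. In Diazinon 115 of the 150 probes lay below their own mean, with a median deviation of -0.33 and array medians of -0.35, -0.37, -0.30 and -0.29. With each array centred on its median in place of quantile normalisation, Diazinon was lowest for only 4 probes with a median deviation of -0.02, and Nickel was highest for 30. The place of Diazinon in this order therefore depended on the scaling, and both chemicals are singled out after the values were seen.

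The 150 probes did not move as 1 group. Over the 36 chemical means, 11175 pairs of probes had a median correlation of 0.07, with 5% below -0.46 and 5% above 0.62. The first 3 principal components held 23.5%, 16.6% and 14.0% of the squared deviation. Within the set, 83 pairs among 68 probes correlated above 0.8. The closest was DM14554 with DM07856 at 0.96, followed by DM13191 with DM08423 at 0.96 and DM12275 with DM09850 at 0.95. Over the residuals of all arrays from the chemical means, which the choice did not use, the 83 pairs had a median correlation of 0.49, beside 0.03 for all pairs, and the first 3 named pairs had 0.59, 0.70 and 0.60. The 16 pairs below -0.7 had a median residual correlation of -0.36. All pairs share the same arrays and their normalisation, and residuals share the array pairs described above, so these values are descriptions. The pattern most like that of DM11755 over the 36 means was that of DM01627 at 0.77, followed by DM05651 at 0.73. Over the residuals their correlations with DM11755 were 0.54 and 0.29. DM11755 reached the scanner limit on 37 arrays, so its pattern over the means rests in part on values at the limit.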

How the data were processed

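Total RNA was labelled with Cy3 by a 1-colour protocol, per the labels. The deposited scanner tables hold median foreground and local background intensity per spot, without normalisation by the authors, and spot flags, another kind of value, per the file headers. The deposited value table holds log2 ratios, and limma is a tool listed in the submitters' processing notes, with settings not given in the sources used here. How the ratios compare with the scanner values is given with the results. From the scanner values, net intensity (floored at 0) plus 50 was put on the log2 scale, averaged over spots of a probe and quantile normalised. Ratios were tested as deposited with limma 3.58.1 in R 4.3.3 (36 group means, 108 residual degrees of freedom, Benjamini-Hochberg within each contrast). Other steps used Python 3.11.15. Alternatives were normexp, foreground only, median centring, dropping flagged spots, quantile normalised ratios, a filter on dim probes, a replicate block, each replicate left out and, added later, 1 value per chemical. The members, lists and tests were chosen with earlier results of these data known. Named probes are the 5 brightest, those at each bound of the choice, the extremes of span, replicate SD and mean ratio per vehicle, and the 2 most like the brightest. Because no probe could be tied to a gene, planned gene groups were not used. In 5 tables, 20 control arrays match no sample and were not used here. Replicate numbers were not taken as a pairing of samples outside the replicate block. Residuals of 2520 pairs of arrays with the same number in different chemicals had a median correlation of 0.00166 (lowest -0.601), and 620 exceeded 0.1. Pairs with different numbers had a median of -0.00144. Such medians cannot exclude that arrays of some chemicals were paired by number. The number of arrays limits the precision. On simulated ratios the fit recovered, for the mean over the 52 arrays in medium, 48 of 50 changes of 0.5 and 39 of 50 of 0.25, among 13481 probes. The simulated arrays were independent, with no array pairs, no differences between chemicals and no spread of the controls. These counts can therefore overstate the recovery in the data. Recovery over fewer arrays was not tested.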

Additional observations from a re-analysis of the deposited data

Results flagged for a closer look

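In 92 groups of 4 arrays, 72 of them medians over the 150 probes and 20 of them levels of 10 named probes, 4 held an array far from the other 3 by Dixon's criterion. Chance gives about 1 in 20. In Bis2-ethylhexyl phthalate the median deviation of the 150 probes was 0.0704 on replicate 4 and 0.0629 to 0.0640 on the others. In PonasteroneA it was 0.0145 on replicate 4 and 0.0302 to 0.0318 on the others. In Trichloroethylene it was 0.193 on replicate 3 and 0.164 to 0.167 on the others. DM12850 read 13.73 on replicate 3 of Nickel and 13.92 to 13.96 on the others. The ratio to the vehicle reference also differed between the chemicals in medium and those in ethanol for 141 of the 150 probes (limma), where 90.1% of all probes were called, and for 99 with 1 value per chemical.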

How the results depend on the processing

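Of 1097 values recomputed, 1055 kept their direction and call or stayed within 1.5 times, 35 moved, 7 lost their call and 0 reversed. Quantile normalising the ratios left 0 probes higher and 0 lower by at least 1 in medium (136 still called), 4 and 1 for medium minus ethanol, and 59 large upward calls over the 36 chemicals. It left 6 and 0 in Copper, 0 and 1 in Phenol, 1 and 0 in 20 hydroxyecdysone and 2 and 4 in Chloroform, and called 114 in 2-chloro vinyl ether (58.0% of all probes; 60 as deposited), 91 in Aroclor (60.7%; 55) and 111 in Toluene (58.0%; 60). The cause was not tested. For large calls with this scaling, shares of all probes are given with the results only for medium and for the upward sum over the 36 chemicals. With 1 value per chemical, which has fewer values, 50 were called in ethanol (15 higher, 35 lower), 0 in methanol (0 and 0), 36 in acetone (16 and 20) and 2 in DMSO (1 and 1), and 36 were lower in medium than in ethanol. Leaving out a replicate gave 0 to 2 large upward calls in Chloroform. Median centring put 4 probes lowest in Diazinon (median deviation -0.0165) and 30 highest in Nickel. Repeating the choice kept 150 of the 150 probes with normexp, 149 with foreground only, 140 without flagged spots, 127 with median centring and at least 135 without any 1 replicate number. A replicate block on the shared numbers left 142 calls in medium and 102 in DMSO and moved no count by over 1.5 times. For 7 probes, spots at the scanner limit bound the level only from below, so any rise above the limit could not be seen.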
